A study of Mus musculus with 18 samples.

Results

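The libraries described here came from cells in which Mtfr1l and Opa1 were knocked down together during direct cardiac reprogramming, set against cells that carried the non-targeting hairpin shNT. They were chosen by their labels, as the 3 double-knockdown and the 3 shNT count columns of the second set, and make up 6 of the 18 samples of the series. Of 23420 genes in the count table, 14162 had enough counts to be tested. All cells were primary cardiac fibroblasts from the hearts of neonatal CD1 mice, and all groups were transduced with a polycistronic retrovirus encoding the factors Mef2c, Gata4 and Tbx5. The 4 groups of the second set differed in their short hairpin RNAs (shRNAs): shMtfr1l with shOpa1, shMtfr1l alone, shOpa1 alone, and shNT, with 3 libraries in each. The titles place the libraries of every group at 7, 8 and 9 days, and the labels call them biological replicates 1, 2 and 3. Replicate number and day therefore cannot be told apart, and the sources used here do not settle whether the running days were meant. The genotype field of the 3 double-knockdown libraries reads shMtfr1l with shOpa1, shOpa2 and shOpa3 in turn, and no source used here gives the meaning of the last number. Neither the hairpins' vector nor a sort for transduced cells is given, and the share of reprogrammed cells in each library was not measured here.

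Direct cardiac reprogramming turns fibroblasts into cells that switch on cardiomyocyte genes without passing through a stem cell state. The cells lose part of their fibroblast and matrix programme, build sarcomeres and calcium-handling machinery, and shift from a fragmented to an elongated, oxidative mitochondrial network. Opa1 is the dynamin-like GTPase that fuses inner mitochondrial membranes and holds the cristae together, and Mtfr1l is an outer membrane protein of the mitochondrial fission regulator family. The comparison asks what the fibroblasts express when both are lowered at once, and on which side of each single knockdown the result lies.

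Depth ran from 16205862 to 25317069 counts over the 12 libraries, so 3 counts, the limit a count of 0 allows, correspond to between 0.117 and 0.183 CPM (counts normalised to library size). All levels below are such CPM values, scaled by the trimmed mean of M values (TMM), and all tests are edgeR quasi-likelihood tests adjusted with the Benjamini-Hochberg method over the 14162 genes. A gene was called at an adjusted p under 0.05. Since the labels do not name the animals or cultures behind the replicates, the p-values measure the spread between these libraries. An exact permutation of 3 libraries against 3 cannot go below p = 0.1, so no such test is given.

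Both hairpin targets were lowered in the double knockdown. Mtfr1l had 22.8, 31.0 and 27.8 CPM in double-knockdown libraries, against 69.4, 69.5 and 76.7 CPM in shNT libraries, a 2.64-fold fall (log2 fold change -1.40 ± 0.11 (SE), adjusted p = 9.63e-13). Opa1 had 20.7, 15.99 and 18.2 CPM in double-knockdown libraries and 57.0, 72.6 and 59.7 CPM in shNT libraries, a 3.46-fold fall (log2 fold change -1.79 ± 0.17 (SE), adjusted p = 6.12e-06). For both genes every double-knockdown library lay below every shNT library. Each target was nevertheless lowered less than by its hairpin alone. Mtfr1l was 1.66-fold higher in the double knockdown than in shMtfr1l cells, which had 15.7, 13.9 and 19.5 CPM (log2 fold change 0.73 ± 0.11 (SE), adjusted p = 5.27e-06). Opa1 was 2.04-fold higher than in shOpa1 cells, which had 7.43, 6.85 and 12.6 CPM (log2 fold change 1.03 ± 0.19 (SE), adjusted p = 0.00745). The double knockdown thus had more remaining transcript of either target than the matching single knockdown, and this stands beside every comparison with the single knockdowns below, where its part was not tested.

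**Figure D1:**
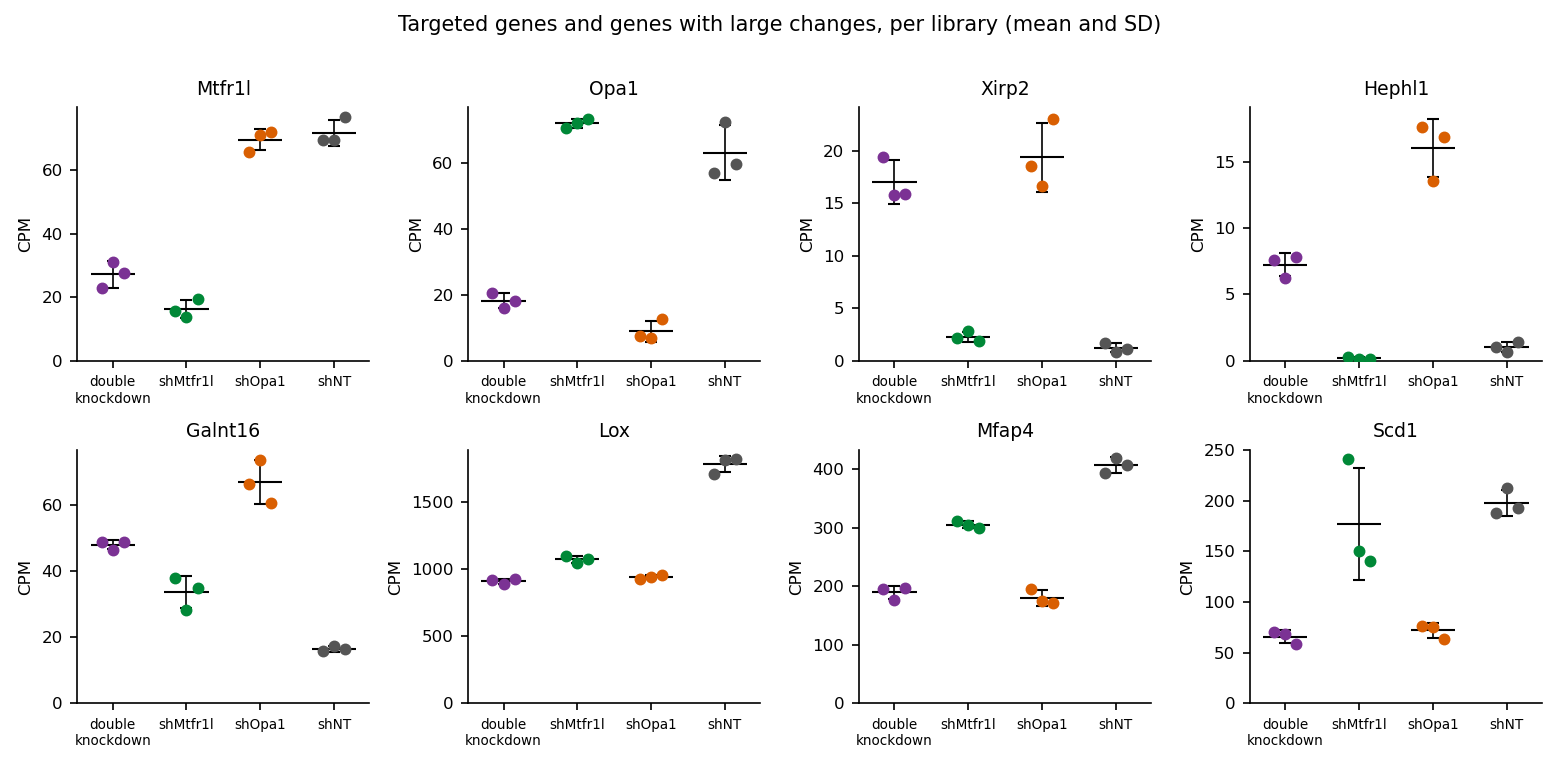
CPM of the hairpin targets and of leading genes in each library of the double knockdown, shMtfr1l, shOpa1 and shNT, with points for libraries, lines for means of 3 and bars for SDs. Mtfr1l averaged 27.2 CPM in the double knockdown and 71.9 CPM in shNT, and Opa1 averaged 18.3 CPM in the double knockdown and 63.1 CPM in shNT.

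The double knockdown differed from shNT in 1581 genes that were higher and 1689 that were lower, or 11.2% and 11.9% of all genes tested and 23.1% together. Most differences were moderate. The median log2 fold change of the called genes was 0.38 among the higher and -0.43 among the lower, and 149 genes rose (1.05%) and 118 fell (0.833%) by more than 2-fold. Over all genes tested the median log2 fold change was 0.0037, a value that TMM scaling holds near 0. The 3 double-knockdown libraries did not overlap the 3 shNT libraries in 5513 genes (38.9%), among them 1517 of the called higher genes and 1628 of the called lower ones. Among 36 gene lists, the sterol and fatty acid synthesis list had the largest share of lower calls (28 of 36 members, with none higher). The integrated stress response and one-carbon list had the largest share of higher calls, 28 of 50. These shares stand against the 11.9% and 11.2% above, and the ranking covers these lists only.

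**Figure D2:**
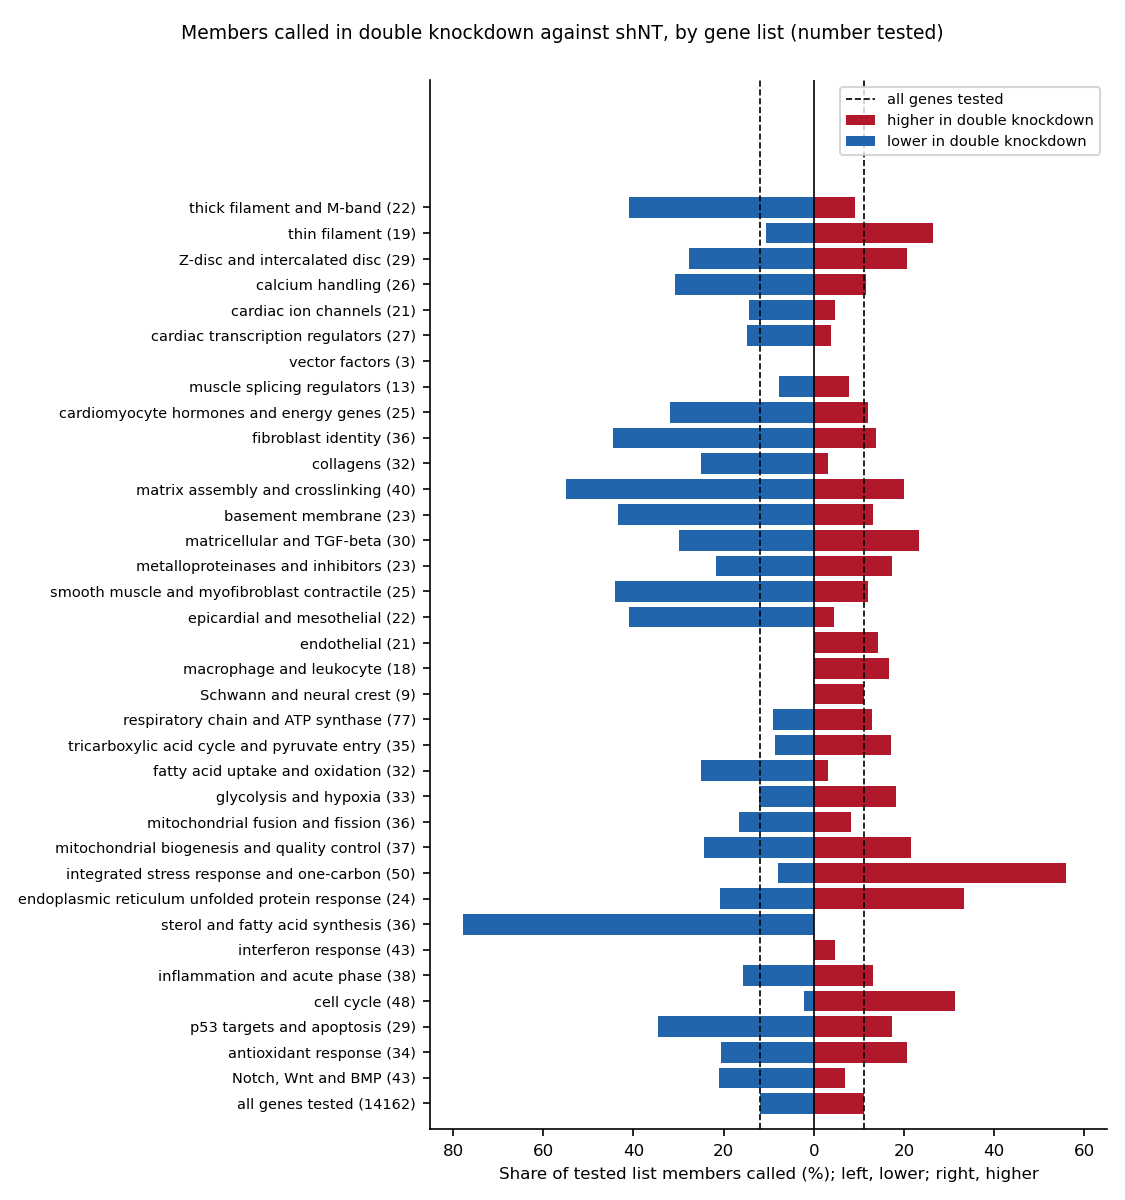
Share of each gene list's tested members called higher (right) or lower (left) in the double knockdown against shNT, in percent, with dashed lines at the shares over all genes tested. Sterol and fatty acid synthesis has 28 of 36 members lower, and the integrated stress response has 28 of 50 members higher.

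Among genes with a mean of 2 CPM or more and no overlap between the groups, the largest rise was that of Xirp2, which encodes an actin-binding repeat protein of muscle cell junctions and costameres. It had 19.5, 15.8 and 15.9 CPM in double-knockdown libraries, against 1.71, 0.861 and 1.13 CPM in shNT libraries, a 14.1-fold rise (log2 fold change 3.82 ± 0.23 (SE), adjusted p = 4.10e-15). Hephl1, a copper-dependent ferroxidase of the hephaestin family, had 7.59, 6.26 and 7.84 CPM in double-knockdown libraries, against 1.04, 0.646 and 1.42 CPM in shNT libraries (log2 fold change 2.81 ± 0.28 (SE), adjusted p = 8.33e-10). Sema3a, a secreted axon guidance cue, had 8.67, 8.09 and 8.48 CPM in the double knockdown and 2.50, 1.64 and 1.51 CPM in shNT (log2 fold change 2.17 ± 0.27 (SE), adjusted p = 6.06e-08). All 3 genes were several-fold higher in each double-knockdown library than in any shNT library. Abra, a muscle activator of serum response factor signalling, rose 4.41-fold (log2 fold change 2.14 ± 0.35 (SE), adjusted p = 1.00e-05), and Sprr3, an epithelial cornified-envelope protein, rose 5.00-fold (log2 fold change 2.32 ± 0.46 (SE), adjusted p = 0.000230). Ctse, the aspartic protease cathepsin E, rose 4.52-fold, to 6.47, 7.16 and 7.61 CPM in double-knockdown libraries, against 1.53, 0.947 and 2.22 CPM in shNT libraries (adjusted p = 0.000230).

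The other large rises included genes of blood cells. Siglec1, a sialic-acid receptor of macrophages, had 8.21, 5.76 and 5.75 CPM in double-knockdown libraries and 1.28, 1.21 and 0.993 CPM in shNT libraries (log2 fold change 2.50 ± 0.64 (SE), adjusted p = 0.0132). Nlrp3, the inflammasome sensor, Clec12a, a myeloid lectin receptor, and Inpp5d, the haematopoietic phosphatase SHIP1, rose 5.59-fold, 5.31-fold and 4.16-fold. Runx3, a transcription factor of lymphoid and myeloid cells, Rgs1, a regulator of chemokine receptor signalling, and Pik3ap1, a B cell and myeloid adaptor, rose 5.20-fold, 4.39-fold and 4.44-fold. All of them were below 30 CPM in every group mean. Few of these calls held throughout. With replicate as a block, adjusted p was 0.0646 for Clec12a, 0.0613 for 1810011H11Rik, an uncharacterised gene among the largest rises, 0.0988 for Pik3ap1 and 0.0819 for Inpp5d. Leaving out 1 double-knockdown library at a time gave an adjusted p of 0.0527 to 0.0695 for Clec12a, 0.0886 to 0.109 for Pik3ap1 and 0.0665 to 0.0977 for Inpp5d, and 0.0651 and 0.0537 for Rgs1 without the first or the second. Leaving out 1 shNT library at a time gave 0.058 to 0.0754 for Siglec1 and 0.0694 to 0.0934 for Nlrp3, and Rgs1, Clec12a, Pik3ap1 and Inpp5d lost their calls without the second or the third shNT library, at 0.0567 to 0.153. Runx3 kept its call in each of these fits and had an adjusted p of 0.0939 without replicate 1 of every group.

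Markers of macrophages and other leukocytes moved with these genes. All 18 tested members of the list had positive log2 fold changes in the double knockdown against shNT, with a median log2 fold change of 1.51, but 3 members were called (background 11.2% of genes called higher). C1qa, a complement subunit made by macrophages, had 24.2, 20.5 and 29.6 CPM in double-knockdown libraries and 7.81, 9.00 and 7.23 CPM in shNT libraries (log2 fold change 1.62 ± 0.41 (SE), adjusted p = 0.0200). Cx3cr1, the fractalkine receptor, had 38.2, 31.1 and 42.2 CPM in double-knockdown libraries, against 11.8, 8.31 and 6.95 CPM in shNT libraries (log2 fold change 2.05 ± 0.57 (SE), adjusted p = 0.0334), and Aif1, a macrophage calcium-binding protein, rose 3.24-fold (adjusted p = 0.0285). Every double-knockdown library was above every shNT library in all 3. Csf1r, the receptor for macrophage colony-stimulating factor, had 89.2, 81.5 and 106 CPM in double-knockdown and 39.0, 26.0 and 19.8 CPM in shNT libraries and missed the threshold (adjusted p = 0.0559).

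Summed over the list, leukocyte markers reached 1048, 916 and 1167 CPM in double-knockdown libraries, 342, 794 and 198 CPM in shMtfr1l libraries, 616, 353 and 979 CPM in shOpa1 libraries, and 604, 404 and 383 CPM in shNT libraries. The double knockdown did not overlap shNT, while shOpa1 and shMtfr1l varied several-fold between replicates. Of the 23 markers in the count table, Cd3e, Ms4a1 and Nkg7, which define T, B and natural killer cells, were at 0 in all 12 libraries. The number of called markers was 1 with replicate as a block, 10 with the DESeq2 Wald test and 15 in a fit of these groups alone, and leaving out any single double-knockdown or shNT library left 0 or 1. With replicate as a block, adjusted p was 0.0521 for C1qa and 0.0752 for Cx3cr1, and without single libraries it reached 0.0746 for C1qa, 0.112 for Cx3cr1 and 0.151 for Aif1. In these bulk libraries, more cells of a type and more RNA per cell cannot be told apart, and the part of leukocyte RNA in the other differences was not tested.

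**Figure D3:**
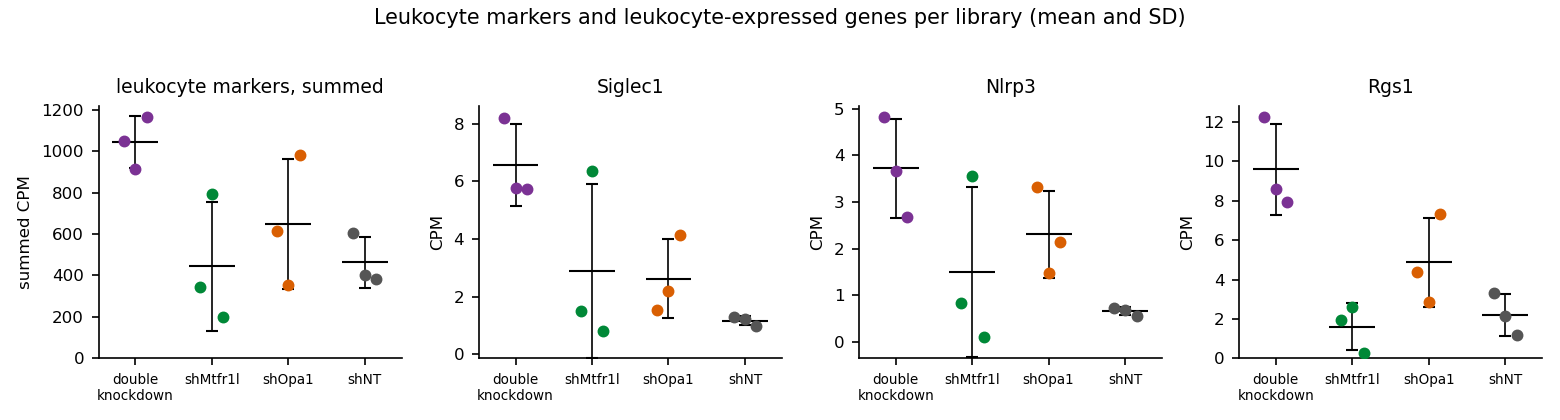
Macrophage and leukocyte markers by library in the double knockdown, shMtfr1l, shOpa1 and shNT. The sum over the list lies between 916 and 1167 CPM in the double knockdown and between 383 and 604 CPM in shNT, and the single-knockdown libraries lie between 198 and 979 CPM.

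The largest falls included genes of neurons and of cardiac muscle. Hcn4, the pacemaker channel, had 0.996, 2.45 and 2.69 CPM in double-knockdown libraries and 6.17, 7.92 and 7.70 CPM in shNT libraries (log2 fold change -1.83 ± 0.33 (SE), adjusted p = 5.97e-05). Fgf14, an intracellular partner of sodium channels, fell 3.44-fold (log2 fold change -1.78 ± 0.36 (SE), adjusted p = 0.000346), and Ptprn, a membrane protein of dense-core secretory granules, fell 2.91-fold (adjusted p = 9.14e-05). Cend1 and Cadm3, a neuronal differentiation protein and a neural adhesion molecule, were below 1 CPM in the double knockdown and fell by 1.94 and 1.86 on the log2 scale, of which Cadm3 had an adjusted p of 0.0874, 0.0634 and 0.0676 without the first or second double-knockdown or the second shNT library, and Cend1 0.0773 without replicate 3 of every group. Myh8, the perinatal skeletal myosin heavy chain, had 7.01, 8.404 and 14.5 CPM in double-knockdown libraries, against 31.4, 35.2 and 39.0 CPM in shNT libraries, a 3.54-fold fall (adjusted p = 0.000777). Ppp1r3a, the muscle glycogen-targeting subunit of protein phosphatase 1, fell 2.89-fold (adjusted p = 0.000278). Cpxm1, a secreted protein of the carboxypeptidase family, had 8.96, 8.52 and 8.89 CPM in double-knockdown libraries, against 27.2, 22.9 and 29.1 CPM in shNT libraries (log2 fold change -1.58 ± 0.15 (SE), adjusted p = 3.44e-10).

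Saa3, an acute-phase serum amyloid made by stromal cells, had 2.66, 5.14 and 2.19 CPM in double-knockdown libraries, against 13.98, 5.86 and 13.1 CPM in shNT libraries (log2 fold change -1.71 ± 0.34 (SE), adjusted p = 0.000263). Its adjusted p was 0.068 in a fit of these groups alone with replicate as a block. Abca4, a lipid-transporting ATPase, fell 2.84-fold and Ankrd29, an ankyrin repeat protein, fell 2.87-fold (adjusted p = 0.000598 and 0.00540). The list of falls also held the lipid synthesis enzymes Scd1 and Elovl6, which are described with their pathway.

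Cardiac sarcomere genes, the readout of reprogramming, moved in both directions. Of 22 tested thick filament and M-band genes 2 were higher and 9 lower, with a median log2 fold change of -0.30. Summed over the list they reached 2405, 2558 and 2483 CPM in double-knockdown libraries, 4080, 3746 and 3973 CPM in shMtfr1l libraries, 2019, 2084 and 1817 CPM in shOpa1 libraries, and 3121, 3010 and 3172 CPM in shNT libraries. The double-knockdown sums therefore lay below shNT, above shOpa1 and far below shMtfr1l, with no overlap between any of these groups. Abundant members weigh most in these sums, and Myl4 was the most abundant in every group. The atrial light chains fell. Myl4, the atrial essential light chain, had 1089, 1152 and 1081 CPM in double-knockdown libraries and 1521, 1371 and 1448 CPM in shNT libraries (log2 fold change -0.39 ± 0.05 (SE), adjusted p = 8.86e-08). Myl7, the atrial regulatory light chain, had 199, 223 and 214 CPM in double-knockdown libraries, against 380.4, 378 and 403 CPM in shNT libraries, a 1.83-fold fall (log2 fold change -0.87 ± 0.08 (SE), adjusted p = 1.99e-06).

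Trim63, the muscle ubiquitin ligase MuRF1, fell by 0.54 and Unc45b, the myosin chaperone, by 0.69 on the log2 scale (adjusted p = 0.000226 and 0.000434). Myh6, the fast adult cardiac myosin heavy chain of the mouse, went the other way, with 73.5, 82.6 and 104 CPM in double-knockdown libraries and 45.6, 50.8 and 56.0 CPM in shNT libraries (log2 fold change 0.77 ± 0.16 (SE), adjusted p = 0.00641). Its groups did not overlap, although adjusted p was 0.107 without replicate 2 of every group. Myh7, the slow cardiac myosin, had 5.31, 4.09 and 3.97 CPM in double-knockdown libraries and 4.15, 2.76 and 3.73 CPM in shNT libraries, which overlapped (adjusted p = 0.449).

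Thin filament genes had 5 members higher and 2 lower of 19, with a median log2 fold change of 0.13. Tnnt2, cardiac troponin T, had 1597, 1621 and 1524 CPM in double-knockdown libraries and 2059, 2003 and 2042 CPM in shNT libraries (log2 fold change -0.36 ± 0.04 (SE), adjusted p = 2.29e-08). Tnni1, the troponin I of fetal heart and slow muscle, fell 2.86-fold (adjusted p = 1.22e-05). Tnnc1, the troponin C of slow and cardiac muscle, rose instead, to 20.2, 16.4 and 17.3 CPM in double-knockdown libraries, against 9.22, 7.62 and 9.60 CPM in shNT libraries (log2 fold change 1.03 ± 0.16 (SE), adjusted p = 8.30e-06). Subunits of the same troponin complex thus moved apart, without overlap between the groups for Tnnt2, Tnni1 or Tnnc1. The count of higher thin filament genes was 3, 3 and 2 when the second double-knockdown, the first shNT or the third shNT library was left out, and 3 without replicate 2 of every group.

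Z-disc and intercalated disc genes split, with 6 higher and 8 lower of 29 and a median log2 fold change of -0.08. Gja1, the gap junction protein connexin 43, had 102, 108 and 104 CPM in double-knockdown libraries and 180.4, 199.6 and 189 CPM in shNT libraries, a 1.81-fold fall (log2 fold change -0.85 ± 0.06 (SE), adjusted p = 4.21e-14). Synpo2l, an actin-bundling Z-disc protein, had 57.7, 69.1 and 59.4 CPM in double-knockdown libraries, against 26.7, 29.6 and 31.5 CPM in shNT libraries, a 2.12-fold rise (log2 fold change 1.08 ± 0.09 (SE), adjusted p = 1.48e-11). Csrp3, the muscle LIM protein, rose 1.73-fold and Flnc, the muscle filamin, 1.34-fold (adjusted p = 6.08e-07 and 1.30e-07). In each of these 4 genes the libraries of the groups were fully apart. The 8 lower calls became 5 when the first or the third double-knockdown library, or the second or the third shNT library, was left out, and also without replicate 2 or 3 of every group.

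**Figure D4:**
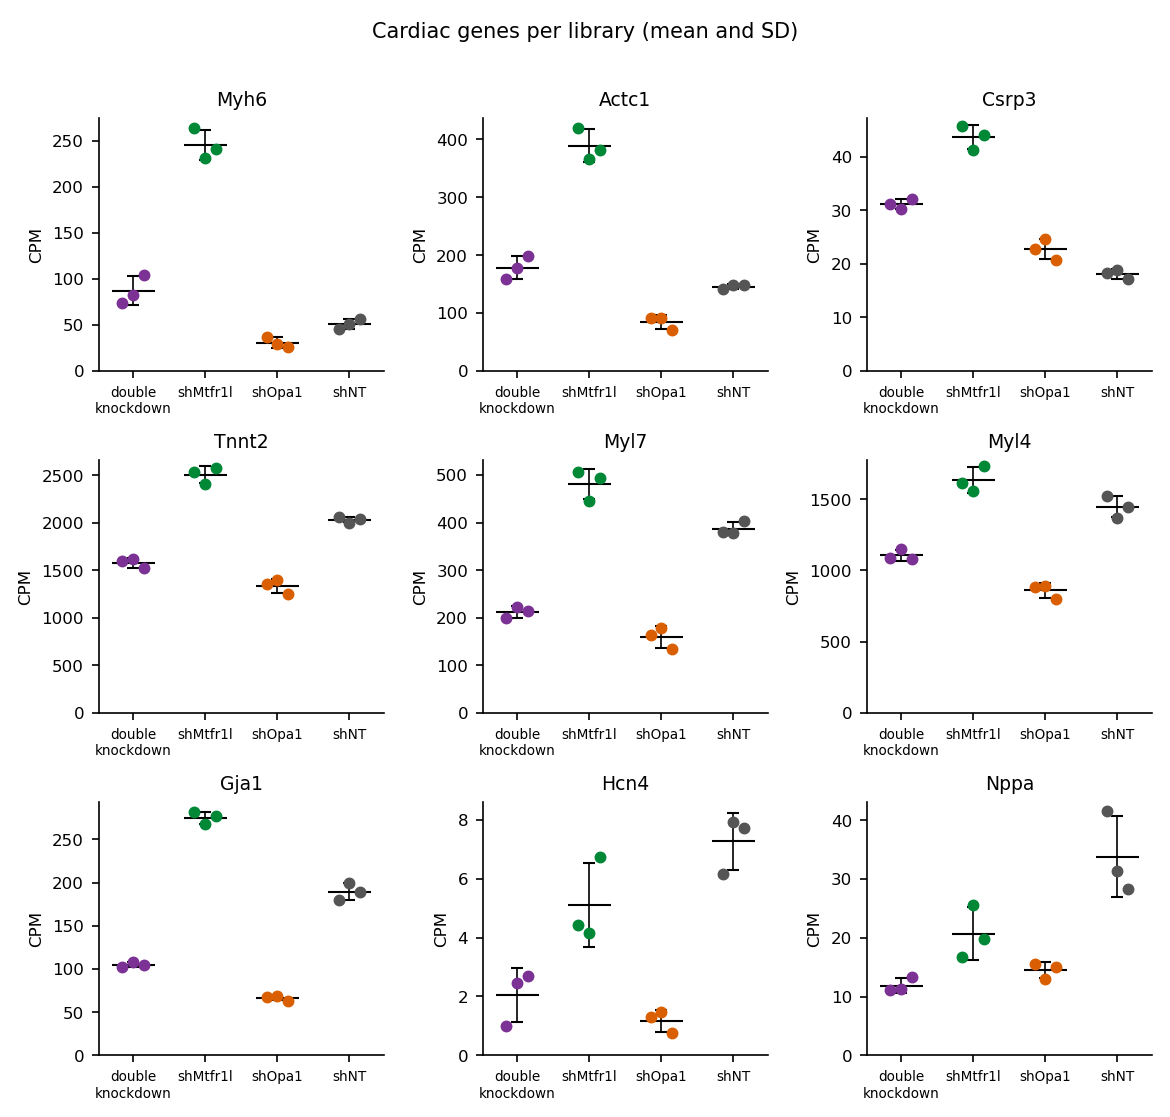
CPM of cardiac genes in each library of the double knockdown, shMtfr1l, shOpa1 and shNT, with points for libraries, lines for means of 3 and bars for SDs. Myl7 averaged 212 CPM in the double knockdown against 387 CPM in shNT, while Csrp3 averaged 31.2 CPM in the double knockdown against 18.1 CPM in shNT.

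Calcium-handling genes had 3 members higher and 8 lower of 26, with a median log2 fold change of -0.17. Slc8a1, the sodium-calcium exchanger, had 97.9, 107 and 117 CPM in double-knockdown libraries and 141, 147 and 153 CPM in shNT libraries (log2 fold change -0.45 ± 0.07 (SE), adjusted p = 1.66e-06). Cacna2d1, an auxiliary calcium channel subunit, fell by 0.43 on the log2 scale (adjusted p = 0.000143). Asph, which encodes junctin and aspartyl hydroxylase isoforms, rose by 0.41 (adjusted p = 1.94e-06). Pln, the phospholamban that restrains the sarcoplasmic calcium pump, was at 0.332, 0.856 and 0.730 CPM in the double knockdown against 2.26, 3.66 and 1.94 CPM in shNT, close to the detection limit (adjusted p = 0.00868), and adjusted p was 0.0573 without the first double-knockdown and 0.076 without the second shNT library. The 8 lower calls became 4 without the first double-knockdown library, 3 without the second and 4 without the second or the third shNT library. Without replicate 2 of every group 2 were lower and 2 higher, and without replicate 1 or 3 the lower calls were 5 and 4.

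Of 21 ion channel genes 1 was higher and 3 were lower, and the called share of 19.0% was below the 23.1% over all genes tested. Kcnj5, a subunit of the acetylcholine-gated potassium channel, fell by 0.32 and Atp1b1, the sodium pump's beta subunit, by 0.36 on the log2 scale (adjusted p = 0.000198 and 2.29e-05). Both were lower in every double-knockdown library than in any shNT library.

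Cardiomyocyte hormone and energy genes had 3 members higher and 8 lower of 25, and 5 lower without replicate 1 of every group. Nppa, the atrial natriuretic peptide, had 11.04, 11.2 and 13.3 CPM in double-knockdown libraries and 41.5, 31.4 and 28.4 CPM in shNT libraries, a 2.84-fold fall (log2 fold change -1.51 ± 0.15 (SE), adjusted p = 1.57e-09). Npr3, the receptor that clears natriuretic peptides, had 39.2, 47.9 and 40.9 CPM in double-knockdown libraries, against 19.6, 26.4 and 25.1 CPM in shNT libraries and rose 1.79-fold (log2 fold change 0.84 ± 0.11 (SE), adjusted p = 2.27e-07). Peptide and clearance receptor moved oppositely, with neither group overlapping the other. The muscle glycolytic enzymes Eno3, a muscle enolase, and Pgam2, the muscle phosphoglycerate mutase, fell by 0.75 and 0.40 on the log2 scale (adjusted p = 9.50e-10 and 0.000171).

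The reprogramming factors themselves did not pass the test. Mef2c had 292, 278 and 279 CPM in double-knockdown libraries and 246, 295 and 286 CPM in shNT libraries (0.04 ± 0.06, adjusted p = 0.744 on the log2 scale). Gata4 averaged 472 ± 4.38 CPM in double-knockdown libraries, against 481 ± 33.6 CPM in shNT libraries (SD, n = 3 each), and Tbx5 averaged 322 ± 14.2 CPM in double-knockdown libraries, against 322 ± 21.7 CPM in shNT libraries (SD, n = 3 each). None of these factors was called, their groups overlapped, and the counts hold vector and endogenous transcripts together. Of 27 cardiac transcription regulators 1 was higher and 4 were lower (18.5% called, against 23.1% of all genes tested), and 1 was lower without replicate 2 of every group. Tbx20, a T-box factor of the developing heart, had 862, 840.4 and 886 CPM in double-knockdown libraries and 1103, 1238 and 1284 CPM in shNT libraries (log2 fold change -0.49 ± 0.05 (SE), adjusted p = 2.51e-08). Mef2d, a relative of the vector's Mef2c, rose by 0.48, while Tbx18, an epicardial and sinus node factor, fell by 0.26 and Smarcd3, a heart subunit of the BAF chromatin complex, by 0.34 (adjusted p = 0.000177, 0.00107 and 0.00109). Among 13 muscle splicing regulators Mbnl1, which drives adult splice patterns, rose by 0.42 and Rbm24, a splicing activator of sarcomere genes, fell by 0.67 on the log2 scale (adjusted p = 2.63e-07 and 0.00511). With 1 higher and 1 lower, 15.4% of this list was called, below the 23.1% of all genes tested. Without the first double-knockdown library adjusted p was 0.0522 for Rbm24.

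Fibroblast identity genes had more lower than higher calls, with 5 higher and 16 lower of 36 and a median log2 fold change of -0.15. Mfap4, a microfibril-associated glycoprotein, had 196, 177 and 196 CPM in double-knockdown libraries and 393, 419 and 408 CPM in shNT libraries, a 2.14-fold fall (log2 fold change -1.10 ± 0.06 (SE), adjusted p = 1.45e-17). Ogn, the small proteoglycan osteoglycin, had 212, 239 and 201 CPM in double-knockdown libraries, against 393, 379 and 405 CPM in shNT libraries (log2 fold change -0.85 ± 0.06 (SE), adjusted p = 3.25e-12). Tcf21, the transcription factor that marks cardiac fibroblasts, had 269.8, 263 and 254 CPM in the double knockdown and 439.8, 398 and 425 CPM in shNT (log2 fold change -0.68 ± 0.06 (SE), adjusted p = 6.85e-11). All 3 were lower in every double-knockdown library than in any shNT library. Vim, the intermediate filament of mesenchymal cells, fell by 0.41 on the log2 scale, to 2512 ± 63.0 CPM in double-knockdown libraries, against 3339 ± 26.8 CPM in shNT libraries (SD, n = 3 each, adjusted p = 8.54e-11). Mfap5 and Cd248, chosen after their values were seen, lay higher instead. Mfap5 had 31.7, 30.2 and 27.4 CPM in double-knockdown libraries, against 23.0, 19.1 and 23.1 CPM in shNT libraries. Cd248 had 76.8, 60.2 and 65.9 CPM in double-knockdown libraries, against 54.5, 50.7 and 49.2 CPM in shNT libraries. Tested for a change past 1.5-fold, 1 member of the list was higher and 2 were lower.

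Matrix assembly and crosslinking genes had 8 members higher and 22 lower of 40, with a median of -0.20 on the log2 scale. Lox, lysyl oxidase, which crosslinks collagen and elastin, had 919, 887 and 925 CPM in double-knockdown libraries and 1714, 1813 and 1820.1 CPM in shNT libraries, a 1.96-fold fall (log2 fold change -0.97 ± 0.04 (SE), adjusted p = 1.47e-19). Bgn, the proteoglycan biglycan, had 5434, 5356 and 5341 CPM in double-knockdown libraries, against 7281, 7995 and 7819 CPM in shNT libraries (log2 fold change -0.52 ± 0.04 (SE), adjusted p = 3.33e-13). Ltbp2, a latent TGF-beta binding family member, fell by 0.82, and Emilin1, an elastic fibre glycoprotein, by 0.42 on the log2 scale (adjusted p = 4.54e-12 and 3.98e-09).

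Basement membrane genes followed, with 3 higher and 10 lower of 23 and a median of -0.22. Lamc1, the laminin gamma-1 chain, had 739, 759 and 779 CPM in double-knockdown libraries and 1124, 1274 and 1297 CPM in shNT libraries (log2 fold change -0.70 ± 0.05 (SE), adjusted p = 3.14e-14). Lama4 and Lama5, laminin alpha chains, fell by 0.59 and 0.73, and Sparc, a collagen-binding matricellular protein, by 0.49 on the log2 scale (adjusted p = 1.06e-10, 2.91e-10 and 1.01e-13). Collagens were less uniform, with 1 higher and 8 lower of 32 and a median of -0.06. Their called share was 28.1%, against 23.1% over all genes tested. Col18a1, the endostatin-bearing basement membrane collagen, had 106, 102 and 103 CPM in double-knockdown libraries, against 177, 202 and 198 CPM in shNT libraries (log2 fold change -0.89 ± 0.06 (SE), adjusted p = 5.01e-14). Col11a1 and Col6a3, fibrillar and microfibrillar chains, fell by 0.48 and 0.34 (adjusted p = 5.21e-09 and 0.000230). Col1a1, the main fibrillar collagen, was the higher member, with 15427, 13617 and 14399 CPM in double-knockdown libraries and 11625, 12800.1 and 13078 CPM in shNT libraries (log2 fold change 0.21 ± 0.05 (SE), adjusted p = 0.00115). The 8 lower collagens became 5 without the third shNT library, and without replicate 2 or 3 of every group.

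Matricellular and TGF-beta genes were divided between 7 higher and 9 lower of 30, with a median log2 fold change of -0.02. Inhba, the activin A subunit, had 84.5, 92.1 and 81.9 CPM in double-knockdown libraries and 45.8, 50.1 and 45.0 CPM in shNT libraries, a 1.83-fold rise (log2 fold change 0.87 ± 0.09 (SE), adjusted p = 1.28e-08). Thbs1, thrombospondin 1, rose 1.32-fold and Ctgf, connective tissue growth factor, 1.27-fold (adjusted p = 2.02e-10 and 8.43e-08). Inhba, Thbs1 and Ctgf were thus higher in every double-knockdown library than in any shNT library. They were taken by smallest adjusted p, and the 9 lower members of their list are not named. Metalloproteinases and their inhibitors had 4 members higher and 5 lower of 23. The metalloproteinases Adam19 and Adamts1 rose by 0.39 and 0.41, while Mmp23, a membrane metalloproteinase, fell by 0.46 and Timp3, a matrix-bound inhibitor, by 0.21 on the log2 scale (adjusted p = 2.21e-07, 4.70e-07, 1.53e-06 and 0.000156).

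Smooth muscle and myofibroblast contractile genes were lower in 11 and higher in 3 of 25, with a median log2 fold change of -0.19. Mylk, myosin light chain kinase, had 119.9, 119 and 128 CPM in double-knockdown libraries and 199, 226 and 229.6 CPM in shNT libraries, a 1.78-fold fall (log2 fold change -0.83 ± 0.06 (SE), adjusted p = 6.10e-13). Acta2, the smooth muscle actin of myofibroblasts, had 2301, 2280.1 and 2297 CPM in double-knockdown libraries, against 3036, 2816 and 2800.1 CPM in shNT libraries (log2 fold change -0.33 ± 0.04 (SE), adjusted p = 3.23e-08). Myl9, a smooth muscle regulatory light chain, fell by 0.48 and Cnn1, calponin, by 0.97 on the log2 scale (adjusted p = 1.18e-09 and 3.61e-07).

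Epicardial and mesothelial markers were lower in 9 and higher in 1 of 22, with a median of -0.43. Lrrn4, a mesothelial leucine-rich repeat protein, had 44.4, 49.6 and 45.1 CPM in double-knockdown libraries and 91.3, 83.2 and 95.4 CPM in shNT libraries (log2 fold change -0.96 ± 0.09 (SE), adjusted p = 2.30e-10). Msln, mesothelin, had 45.2, 63.4 and 57.0 CPM in double-knockdown libraries, against 78.0, 84.1 and 84.9 CPM in shNT libraries (log2 fold change -0.58 ± 0.10 (SE), adjusted p = 6.52e-05), and Bnc1, the zinc finger factor basonuclin, fell by 0.62 (adjusted p = 0.000590). Rspo1, a secreted Wnt amplifier, had 0.249, 0.428 and 0.365 CPM in the double knockdown against 4.03, 2.84 and 3.73 CPM in shNT (log2 fold change -3.32 ± 0.58 (SE), adjusted p = 3.48e-05). The groups were apart in all 4, and the 9 lower calls became 5 without the first double-knockdown library. Here too the share of cells and the RNA per cell were not separated.

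Endothelial markers were higher in 3 and lower in none of 21, with a median log2 fold change of -0.03. The higher calls made up 14.3% of the list, near the 11.2% over all genes tested. Fli1, an ETS factor of endothelial and blood cells, had 22.8, 20.4 and 22.3 CPM in double-knockdown libraries and 16.4, 11.02 and 13.2 CPM in shNT libraries (log2 fold change 0.69 ± 0.15 (SE), adjusted p = 0.000484). Vwf, von Willebrand factor, and Flt1, a VEGF receptor, rose 2.79-fold and 1.19-fold (adjusted p = 0.00638 and 0.0363), and 1 endothelial call was left without the third double-knockdown library, where adjusted p was 0.0898 for Vwf. Flt1 also lost its call without the second double-knockdown or the first or second shNT library (adjusted p = 0.0675, 0.148 and 0.115). Of 9 Schwann and neural crest genes Mbp, myelin basic protein, was called (0.65 ± 0.20, adjusted p = 0.0129 on the log2 scale), and its groups overlapped. The called share of that list was 11.1%, below the 23.1% over all genes tested. Without the first double-knockdown or the second shNT library adjusted p was 0.141 and 0.0937 for Mbp. The globin genes Hba-a1, Hba-a2, Hbb-b1 and Hbb-b2 were at 0 in all 12 libraries, and no member of the red blood cell list had enough counts to be tested.

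Genes of cholesterol and fatty acid synthesis fell as a block of 28 among 36, with a median log2 fold change of -0.58 against 0.0037 over all genes. Summed over the list they reached 2749, 2629 and 2578 CPM in double-knockdown libraries, 3412, 3599 and 3296 CPM in shMtfr1l libraries, 2915, 2790 and 2869 CPM in shOpa1 libraries, and 3790, 4156 and 4015 CPM in shNT libraries. The double-knockdown sums were the lowest of the 4 groups and overlapped with none of them. In 23 of the 36 genes the double-knockdown mean lay below both single knockdowns, against 3299 of all 14162 genes.

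In the sterol branch, Hmgcs1, the synthase that starts the mevalonate pathway, had 75.5, 74.5 and 79.8 CPM in double-knockdown libraries and 135, 148 and 144 CPM in shNT libraries (log2 fold change -0.89 ± 0.07 (SE), adjusted p = 9.61e-13). Insig1, the sterol sensor that retains SREBP factors in the endoplasmic reticulum, had 63.2, 69.7 and 67.4 CPM in double-knockdown libraries, against 137, 141 and 128 CPM in shNT libraries, a 2.03-fold fall (log2 fold change -1.02 ± 0.08 (SE), adjusted p = 5.10e-13). Both were lower in each double-knockdown library than in any shNT library. Srebf2, the master regulator of sterol genes, which was chosen after its values were seen, fell by 0.29 on the log2 scale (adjusted p = 0.000109).

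In the fatty acid branch, Fads1, the delta-5 desaturase, had 129.5, 120.2 and 127 CPM in double-knockdown libraries and 222, 252 and 249.6 CPM in shNT libraries, a 1.92-fold fall (log2 fold change -0.94 ± 0.06 (SE), adjusted p = 5.29e-15). Elovl6, the elongase of saturated fatty acids, had 8.01, 9.81 and 9.53 CPM in double-knockdown libraries, against 22.3, 26.4 and 29.4 CPM in shNT libraries (log2 fold change -1.52 ± 0.16 (SE), adjusted p = 1.43e-09). Scd1, a stearoyl-CoA desaturase, had 70.8, 68.4 and 58.5 CPM in the double knockdown and 188, 212 and 193 CPM in shNT (log2 fold change -1.58 ± 0.20 (SE), adjusted p = 0.000540). Scd1 and Elovl6 fell furthest among the genes described for this pathway. Scd2, another stearoyl-CoA desaturase, averaged 309 ± 14.8 CPM in the double knockdown and 629.9 ± 41.6 CPM in shNT (SD, n = 3 each, log2 fold change -1.03 ± 0.07 (SE), adjusted p = 1.54e-09).

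Promoter sequence was read for these pathways because their members moved together. The sterol regulatory element, searched as TCACNCCAC on both strands in the 250 bases before each RefSeq start, was found in 1 of 26 tested sterol genes with a promoter in the table (3.85%), in 136 of 10404 tested genes (1.31%) and in 346 of all 32851 promoters (1.05%). That gene was Hmgcs1, on chr13:119690101-119690350 of GRCm38.p6, plus strand, with the match starting 137 bases before the start. The sequence is shown since this is the list's only match, with the match in capitals.
Hmgcs1: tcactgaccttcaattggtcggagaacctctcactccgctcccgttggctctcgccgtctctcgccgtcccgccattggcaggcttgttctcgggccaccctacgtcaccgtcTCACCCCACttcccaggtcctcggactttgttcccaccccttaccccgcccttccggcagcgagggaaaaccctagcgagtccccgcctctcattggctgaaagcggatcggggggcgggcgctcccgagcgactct

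The integrated stress response is the pathway by which kinases sensing mitochondrial and other stress switch translation towards the transcription factor Atf4, whose targets import and make amino acids, charge transfer RNAs and feed one-carbon metabolism. Its list had 28 members higher and 4 lower of 50, with a median log2 fold change of 0.23. Summed over the list it reached 6158, 6203 and 6056 CPM in double-knockdown libraries, 5117, 5317 and 5198 CPM in shMtfr1l libraries, 5886, 6230 and 6267 CPM in shOpa1 libraries, and 5269, 5320 and 5206 CPM in shNT libraries. The double knockdown was above shNT and shMtfr1l without overlap, and it overlapped shOpa1.

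The amino acid transporters and transfer RNA synthetases carried part of the rise. Slc7a1, the cationic amino acid transporter, had 222, 241 and 229.9 CPM in double-knockdown libraries and 153, 168 and 157 CPM in shNT libraries (log2 fold change 0.53 ± 0.06 (SE), adjusted p = 3.98e-09). Slc7a5, the large neutral amino acid transporter LAT1, had 366, 361 and 351 CPM in double-knockdown libraries, against 265, 282 and 269 CPM in shNT libraries (log2 fold change 0.40 ± 0.05 (SE), adjusted p = 1.47e-07). Aars, alanyl-tRNA synthetase, had 472, 483 and 446 CPM in the double knockdown and 349, 374 and 345 CPM in shNT (log2 fold change 0.39 ± 0.05 (SE), adjusted p = 1.04e-07). None of these groups overlapped. Ddit4, an inhibitor of mTORC1 that this pathway can induce, went down instead, with 31.0, 25.9 and 32.2 CPM in double-knockdown libraries, against 52.5, 52.7 and 48.6 CPM in shNT libraries (log2 fold change -0.79 ± 0.10 (SE), adjusted p = 1.61e-07).

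Further members were chosen after their values were seen. Atf3, a stress-induced transcription factor, had 30.0, 28.3 and 24.3 CPM in double-knockdown libraries and 11.7, 14.04 and 15.5 CPM in shNT libraries, a 2.00-fold rise (adjusted p = 8.81e-07). Mthfd2, the mitochondrial one-carbon dehydrogenase, rose 1.47-fold, Gdf15, a stress hormone, 1.56-fold and Slc7a11, the cystine transporter, 1.46-fold (adjusted p = 6.02e-07, 0.00191 and 0.00177). Other well-known members did not pass. Atf4 itself had 201, 203 and 195 CPM in double-knockdown libraries and 221, 220.3 and 208 CPM in shNT libraries (-0.11 ± 0.06, adjusted p = 0.181 on the log2 scale). Ddit3, the factor CHOP, Trib3, a pseudokinase, and Asns, asparagine synthetase, had log2 fold changes of -0.01, -0.24 and 0.17 (adjusted p = 0.980, 0.0911 and 0.0680).

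The Atf4 composite element was searched as TGATGCAA, on both strands, in the same 250 bases. It was found in 10 of the 39 tested list members with a promoter in the table (25.6%), in 5 of the 21 of them that were called higher (23.8%), in 72 of 10404 tested genes (0.692%) and in 260 of all 32851 promoters (0.791%). The members with a match were Atf3, Chac1, Pycr1, Slc7a11, Fgf21, Nupr1, Vldlr, Herpud1, Aars and Tars. Of these, Chac1, Pycr1, Fgf21, Vldlr and Herpud1 were not called. The list was drawn up from genes of the Atf4 pathway, so its share above that of all genes says nothing about these libraries. A match describes these letters and does not show binding. The promoters of Aars, Atf3 and Slc7a11, all of which were higher in the double knockdown, are shown with the matches in capitals, on chr8:111033592-111033841 (plus strand), chr1:191183334-191183583 (minus strand) and chr3:50443614-50443863 (minus strand) of GRCm38.p6. The matches start 112 bases before the start of Aars, 110 before that of Atf3, and 66 and 47 before that of Slc7a11.
Aars: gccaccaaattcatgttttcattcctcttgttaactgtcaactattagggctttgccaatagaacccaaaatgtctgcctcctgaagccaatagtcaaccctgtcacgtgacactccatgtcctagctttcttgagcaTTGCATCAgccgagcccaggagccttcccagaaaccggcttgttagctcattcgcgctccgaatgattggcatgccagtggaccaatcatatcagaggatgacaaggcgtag
Atf3: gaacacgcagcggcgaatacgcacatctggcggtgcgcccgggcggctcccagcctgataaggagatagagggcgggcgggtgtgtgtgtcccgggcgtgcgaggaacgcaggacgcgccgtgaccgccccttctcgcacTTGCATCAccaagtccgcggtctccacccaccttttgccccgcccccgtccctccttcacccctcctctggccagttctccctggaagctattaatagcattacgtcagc
Slc7a11: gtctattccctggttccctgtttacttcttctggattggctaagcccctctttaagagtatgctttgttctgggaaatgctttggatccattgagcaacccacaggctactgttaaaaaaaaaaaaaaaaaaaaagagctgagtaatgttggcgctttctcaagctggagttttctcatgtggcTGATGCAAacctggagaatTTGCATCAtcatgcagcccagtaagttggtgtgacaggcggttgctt

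**Figure D5:**
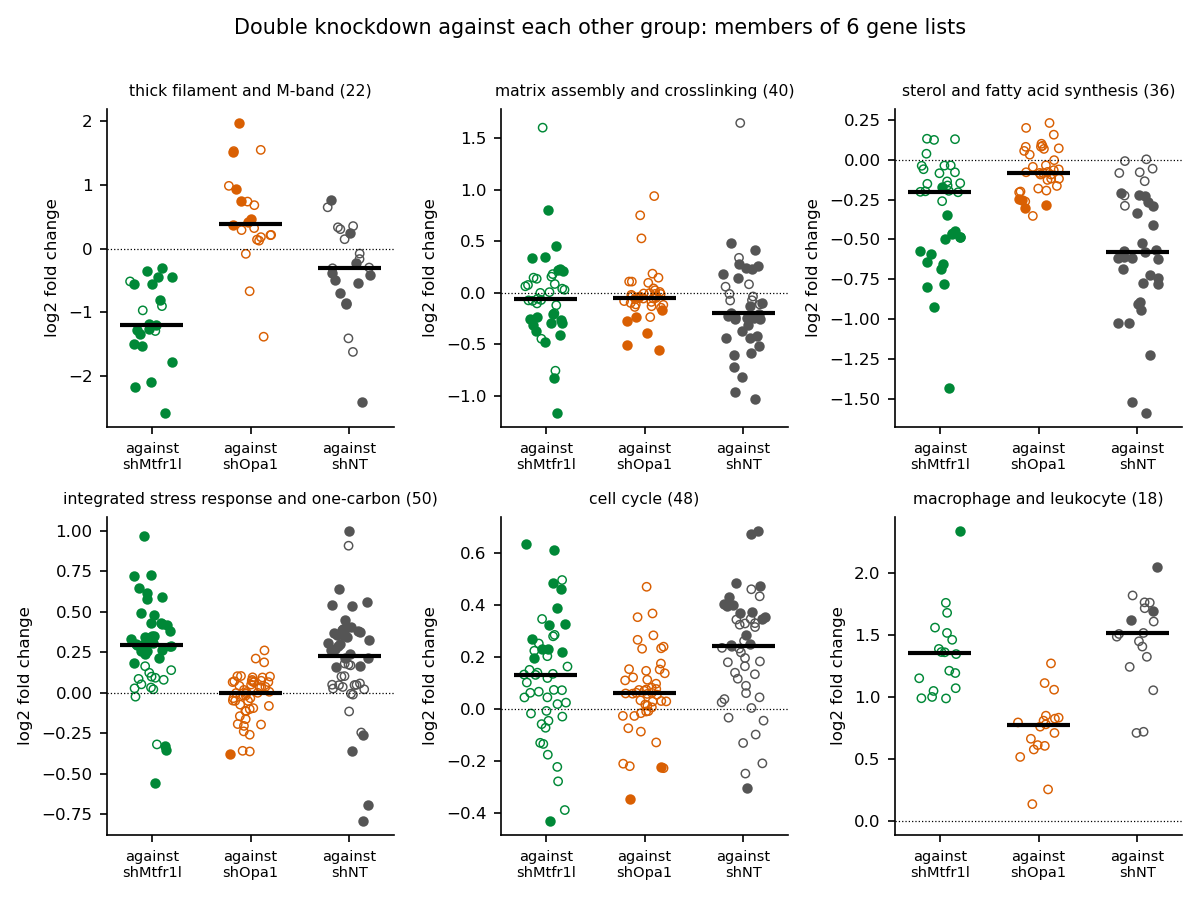
Log2 fold changes of the tested members of 6 lists in the double knockdown against shMtfr1l, shOpa1 and shNT, with filled points for called genes, open points for the others and a line at the median. Against shNT the sterol and fatty acid synthesis list has a median of -0.58 and the integrated stress response and one-carbon list a median of 0.23, and against shMtfr1l the thick filament list has a median of -1.19.

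Nuclear-encoded respiratory chain genes had 10 members higher and 7 lower of 77, with a median log2 fold change of -0.01. The called share of 22.1% was near the 23.1% over all genes tested. Uqcr10, a small complex III subunit, had 58.5, 52.3 and 50.2 CPM in double-knockdown libraries and 41.5, 35.7 and 34.9 CPM in shNT libraries (log2 fold change 0.53 ± 0.09 (SE), adjusted p = 2.99e-05). Ndufs8, an iron-sulphur subunit of complex I, had 37.6, 39.5 and 33.6 CPM in double-knockdown libraries, against 57.5, 55.3 and 57.3 CPM in shNT libraries (log2 fold change -0.62 ± 0.12 (SE), adjusted p = 0.000425). The ATP synthase was split between Atp5b, a catalytic subunit that rose by 0.21, and Atp5f1, a stalk subunit that fell by 0.33 on the log2 scale (adjusted p = 0.000490 and 0.000434). The 10 higher calls became 5 without the second double-knockdown library. Without replicate 2 of every group 2 were higher and 8 lower, and without replicate 3 of every group 6 were higher and 4 lower. The tricarboxylic acid cycle list had 6 higher and 3 lower of 35, a called share of 25.7% that was near the background too, and the higher calls were 3 without replicate 3 of every group. Got1, the cytosolic aspartate aminotransferase, rose by 0.58 and Dlat, a pyruvate dehydrogenase subunit, by 0.29, while Idh1, the cytosolic isocitrate dehydrogenase, fell by 0.37 and Mpc2, a pyruvate carrier subunit, by 0.44 on the log2 scale (adjusted p = 1.95e-07, 0.00288, 7.41e-05 and 0.000570). For Dlat adjusted p was 0.0501 without the first double-knockdown library.

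Fatty acid oxidation genes were lower in 8 and higher in 1 of 32, with a median of -0.16, and without replicate 2 of every group 5 were lower. Their called share was 28.1%, against 23.1% over all genes tested. Cpt1a, which admits fatty acids to mitochondria, had 98.4, 101 and 106 CPM in double-knockdown libraries and 124, 149 and 145 CPM in shNT libraries (log2 fold change -0.46 ± 0.07 (SE), adjusted p = 1.45e-06). Acaa2 and Echs1, enzymes of the mitochondrial spiral, fell by 0.45 and 0.36 on the log2 scale (adjusted p = 6.27e-05 and 0.00101). Cpt1a, Acaa2 and Echs1 were lower in every double-knockdown library than in any shNT library.

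The glycolysis and hypoxia list had 6 members higher and 4 lower of 33, or 30.3% called against 23.1% over all genes tested. Adm, the vasodilator adrenomedullin, had 197, 190.2 and 185 CPM in double-knockdown libraries and 115, 116 and 111 CPM in shNT libraries (log2 fold change 0.74 ± 0.06 (SE), adjusted p = 9.61e-13). Slc2a1, the basal glucose transporter, rose 1.47-fold and Vegfa, the endothelial growth factor, 1.43-fold (adjusted p = 1.86e-08 and 5.77e-08). Egln3, a prolyl hydroxylase of hypoxia-inducible factors, went the other way, with 73.9, 82.3 and 81.3 CPM in double-knockdown libraries, against 125, 122 and 119 CPM in shNT libraries (log2 fold change -0.62 ± 0.07 (SE), adjusted p = 3.12e-09).

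Beyond the hairpin targets, the mitochondrial fusion and fission list had 3 members higher and 4 more lower of 36 tested, a number that includes the targets. Even with the targets, the called share of 25% was near the 23.1% over all genes tested. Mfn2, a mitofusin that joins outer membranes, had 78.3, 72.4 and 73.5 CPM in double-knockdown libraries and 95.2, 94.7 and 115 CPM in shNT libraries (log2 fold change -0.44 ± 0.08 (SE), adjusted p = 6.18e-05). Mtch1, an outer membrane carrier homologue, fell by 0.40 on the log2 scale (adjusted p = 1.68e-08). The biogenesis and quality control list had 8 higher and 9 lower of 37. Matrix chaperones were among the higher members. Hspd1, the mitochondrial HSP60, had 96.0, 106 and 89.8 CPM in double-knockdown libraries, against 57.3, 67.5 and 56.9 CPM in shNT libraries (log2 fold change 0.68 ± 0.08 (SE), adjusted p = 2.48e-08), and Hspa9, mortalin, rose by 0.39 (adjusted p = 1.05e-07). Bnip3l, a mitophagy receptor, and Map1lc3b, an autophagosome protein, fell by 0.64 and 0.42 on the log2 scale (adjusted p = 8.69e-08 and 4.96e-07). Leaving out the first shNT library took the 9 lower calls to 5, and leaving out replicate 1 of every group to 4.

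The unfolded protein response of the endoplasmic reticulum had 8 members higher and 5 lower of 24. Hspa5, the luminal chaperone BiP, had 1080.4, 1063 and 1029 CPM in double-knockdown libraries and 913, 899 and 890.3 CPM in shNT libraries (log2 fold change 0.23 ± 0.04 (SE), adjusted p = 8.67e-05). Dnajb9, its co-chaperone, was lower, with 21.2, 21.5 and 23.2 CPM in double-knockdown libraries, against 42.8, 43.1 and 35.4 CPM in shNT libraries (log2 fold change -0.88 ± 0.12 (SE), adjusted p = 3.63e-07). Sel1l, a scaffold of protein disposal, fell by 0.45 and Crebrf, a stress-linked regulator, by 0.33 on the log2 scale (adjusted p = 4.89e-07 and 0.00175). The 8 higher calls became 5, 4, 5 and 4 without the first double-knockdown, the second double-knockdown, the second shNT or the third shNT library. Without replicate 1, 2 or 3 of every group they were 4, 3 and 2, beside 4, 3 and 3 lower calls.

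Cell cycle genes were higher in 15 and lower in 1 of 48, with a median of 0.24. Mcm5, a subunit of the replicative helicase, had 66.6, 62.9 and 66.9 CPM in double-knockdown libraries and 45.9, 41.5 and 36.2 CPM in shNT libraries (log2 fold change 0.67 ± 0.09 (SE), adjusted p = 9.11e-07). Mcm6, its partner, and Ccnd3, cyclin D3, rose by 0.47 and 0.43 on the log2 scale (adjusted p = 3.01e-06 and 1.68e-06). Ccnd2, cyclin D2, was the lower member, with 560.4, 592 and 569 CPM in double-knockdown libraries, against 674, 712 and 739.8 CPM in shNT libraries (log2 fold change -0.30 ± 0.05 (SE), adjusted p = 4.46e-06). Without the third double-knockdown library the higher calls were 8, and without replicate 1 or 3 of every group 9 and 8. The p53 and apoptosis list had 5 higher and 10 lower of 29. Ccng1, cyclin G1, fell by 0.47, Eda2r, a death receptor, by 0.62 and Perp, a membrane effector of p53, by 1.34, while Btg2, an antiproliferative factor, rose by 0.58 on the log2 scale (adjusted p = 7.08e-10, 1.40e-08, 2.41e-05 and 5.53e-09).

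The antioxidant list was even, with 7 higher and 7 lower of 34. Sod3, the extracellular superoxide dismutase, had 82.6, 70.6 and 82.3 CPM in double-knockdown libraries and 143, 140.4 and 149.98 CPM in shNT libraries (log2 fold change -0.88 ± 0.07 (SE), adjusted p = 4.68e-12). Hmox1, heme oxygenase 1, rose 1.36-fold (adjusted p = 3.24e-06), while Gpx3, the secreted glutathione peroxidase, and Mt2, a metallothionein, fell by 0.28 and 0.53 on the log2 scale (adjusted p = 5.27e-06 and 6.44e-05). The Notch, Wnt and BMP list had 3 higher and 9 lower of 43, or 27.9% called against 23.1% over all genes tested. Fst, the activin antagonist follistatin, had 39.4, 42.0 and 44.6 CPM in double-knockdown libraries, against 72.8, 83.0 and 81.8 CPM in shNT libraries (log2 fold change -0.92 ± 0.08 (SE), adjusted p = 7.24e-11). Dkk3, a Dickkopf family glycoprotein, fell by 0.92, Nkd1, a feedback inhibitor of Wnt signalling, by 0.63 and Id3, a BMP target, by 0.46 on the log2 scale (adjusted p = 3.53e-08, 1.41e-06 and 3.30e-07).

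Inflammation and acute-phase genes were split between 5 higher and 6 lower of 38, or 28.9% called against 23.1% over all genes tested. Csf1, the growth factor of macrophages, had 992, 965 and 900.0 CPM in double-knockdown libraries and 631, 603 and 632 CPM in shNT libraries (log2 fold change 0.61 ± 0.05 (SE), adjusted p = 3.70e-13). Ptx3, a pentraxin of innate defence, had 44.8, 46.0 and 35.3 CPM in double-knockdown libraries, against 15.3, 15.1 and 17.5 CPM in shNT libraries, a 2.63-fold rise (log2 fold change 1.40 ± 0.11 (SE), adjusted p = 1.50e-12). Vcam1, an adhesion molecule for leukocytes, and C1ra, a complement protease, fell by 0.47 and 0.60 on the log2 scale (adjusted p = 2.67e-08 and 8.17e-09). Interferon response genes were higher in 2 and lower in none of 43, with a median of 0.39. The called share of 4.65% was below the 23.1% over all genes tested. Xaf1, an interferon-induced apoptosis factor, had 22.9, 18.6 and 13.6 CPM in the double knockdown and 8.00, 8.35 and 7.23 CPM in shNT (log2 fold change 1.22 ± 0.23 (SE), adjusted p = 0.000337). Oas3, a sensor of double-stranded RNA, had 3.69, 1.13 and 0.730 CPM in double-knockdown libraries, against 0.244, 0.172 and 0.520 CPM in shNT libraries (adjusted p = 0.0149), which became 0.285, 0.0589 and 0.0837 without the first double-knockdown, the first shNT or the second shNT library. Psmb9, an immunoproteasome subunit, and Oas2, a relative of Oas3, were not called (adjusted p = 0.0598 and 0.0759). The count of called interferon genes ranged from 1 to 4 when single double-knockdown or shNT libraries were left out, and was 1, 1 and 9 without replicate 1, 2 or 3 of every group.

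Set against shMtfr1l alone, the double knockdown had 1377 genes higher and 1664 lower (9.72% and 11.7% of genes tested, 21.5% together). The comparison shares its double-knockdown libraries with the one above. Of 22 thick filament genes 18 were lower and none higher, with a median log2 fold change of -1.19, and of 19 thin filament genes 6 were lower and 1 higher. Myh6 had 73.5, 82.6 and 104 CPM in double-knockdown libraries, against 263, 232 and 241 CPM in shMtfr1l libraries, a 2.83-fold difference (log2 fold change -1.50 ± 0.15 (SE), adjusted p = 8.49e-05). Hrc, a calcium-binding protein of the sarcoplasmic reticulum, had 1.54, 1.09 and 0.638 CPM in double-knockdown libraries, against 5.09, 5.55 and 6.03 CPM in shMtfr1l libraries (log2 fold change -2.34 ± 0.40 (SE), adjusted p = 2.60e-05), and Ppargc1a, a coactivator of mitochondrial biogenesis, had 1.203, 1.28 and 1.64 CPM in double-knockdown libraries, against 8.73, 5.61 and 4.47 CPM in shMtfr1l libraries (log2 fold change -2.19 ± 0.37 (SE), adjusted p = 1.89e-05). In all 3 genes no double-knockdown library reached the shMtfr1l range. Ppp1r3a was 5.18-fold lower and Mybphl, a relative of cardiac myosin binding protein, 4.50-fold lower than in shMtfr1l cells (adjusted p = 2.57e-07 and 0.00999).

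Calcium-handling genes were lower than in shMtfr1l cells in 13 and higher in 1 of 26 (median -0.60), hormone and energy genes lower in 14 and higher in none of 25 (median -0.79), and fatty acid oxidation genes lower in 13 and higher in 1 of 32. The vector factors were lower in 3 of 3, by 0.20 for Mef2c, 0.19 for Gata4 and 0.20 for Tbx5 on the log2 scale (adjusted p = 0.0207, 0.00851 and 0.0109). Sterol and fatty acid synthesis genes were lower in 16 and higher in none of 36, and integrated stress response genes higher in 32 and lower in 3 of 50, with a median of 0.29. Among the largest rises, Hephl1 had 7.59, 6.26 and 7.84 CPM in double-knockdown libraries and 0.312, 0.117 and 0.116 CPM in shMtfr1l libraries (log2 fold change 5.24 ± 0.37 (SE), adjusted p = 8.24e-14), and Tlr5, the flagellin receptor, 5.02, 4.12 and 4.42 CPM in double-knockdown libraries, against 0.780, 1.17 and 0.290 CPM in shMtfr1l libraries (log2 fold change 2.59 ± 0.37 (SE), adjusted p = 1.36e-06). P2ry13, a purine receptor of myeloid cells, was 5.66-fold higher (adjusted p = 0.0305), and leukocyte markers had 1 of 18 called higher. Inflammation genes were higher in 12 and lower in 3 of 38, with Ptx3 at 44.8, 46.0 and 35.3 CPM in double-knockdown libraries, against 8.47, 8.00 and 9.11 CPM in shMtfr1l libraries (log2 fold change 2.30 ± 0.12 (SE), adjusted p = 1.05e-17).

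Set against shOpa1 alone, fewer genes differed, with 327 higher and 348 lower (2.31% and 2.46% of genes tested, 4.77% together). These 675 calls became 449, 409 and 423 without the first, the second or the third double-knockdown library and 416 without the second shOpa1 library. Of 22 thick filament genes 7 were higher and none lower here, with a median log2 fold change of 0.39. Myh7 had 5.31, 4.09 and 3.97 CPM in double-knockdown libraries and 1.63, 1.28 and 0.477 CPM in shOpa1 libraries, a 3.93-fold difference (log2 fold change 1.98 ± 0.32 (SE), adjusted p = 6.98e-05). Myh6 had 73.5, 82.6 and 104 CPM in double-knockdown libraries, against 36.8, 28.7 and 25.8 CPM in shOpa1 libraries (log2 fold change 1.51 ± 0.16 (SE), adjusted p = 0.000822). Thin filament genes were higher in 5 and lower in none of 19, calcium-handling genes higher in 4 and lower in none of 26, and Z-disc genes higher in 6 and lower in 1 of 29. The double-knockdown means of 19 of 22 thick filament genes lay between those of the single knockdowns, against 52.8% of all genes tested.

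Among the largest falls against shOpa1, Sfrp2, a secreted Wnt modulator of fibroblasts, had 8.38, 9.69 and 10.9 CPM in double-knockdown libraries and 25.6, 25.9 and 25.04 CPM in shOpa1 libraries (log2 fold change -1.40 ± 0.18 (SE), adjusted p = 1.19e-06). Dlk1, a Notch-like regulator of progenitor cells, had 4.94, 5.37 and 6.20 CPM in double-knockdown libraries, against 10.8, 14.2 and 12.8 CPM in shOpa1 libraries (log2 fold change -1.20 ± 0.23 (SE), adjusted p = 0.000704). Vstm5, a membrane immunoglobulin protein, and Clec3b, tetranectin, were 3.29-fold and 3.08-fold lower (adjusted p = 0.0140 and 0.0322). Fibroblast identity genes were lower in 9 and higher in 2 of 36, collagens lower in 7 and higher in 2 of 32, and metalloproteinases and inhibitors lower in 7 and higher in none of 23. Matrix assembly genes were lower in 6 and higher in none of 40, matricellular and TGF-beta genes lower in 5 and higher in 3 of 30, and basement membrane genes lower in 3 and higher in 5 of 23. By contrast, integrated stress response genes were higher in none and lower in 1 of 50, with a median of -0.0003, and sterol genes higher in none and lower in 4 of 36. A missing call does not show that the groups were alike. Ctse had 6.47, 7.16 and 7.61 CPM in double-knockdown libraries and 2.38, 0.951 and 3.20 CPM in shOpa1 libraries (log2 fold change 1.70 ± 0.41 (SE), adjusted p = 0.0103), and Esm1, an endothelial proteoglycan, was 2.78-fold higher (adjusted p = 0.0475).

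Of the genes called against shNT, 636 of the 1581 higher ones had a double-knockdown mean above both single knockdowns, and 609 of the 1689 lower ones a mean below both. Over all 14162 genes tested, 3383 means lay above both and 3299 below both. The same double-knockdown libraries gave the calls and these means, so the shares cannot show a joint effect. Called in the same direction in all 3 comparisons, which share the double-knockdown libraries, were 12 higher and 9 lower genes, and those named here were chosen after their values were seen. Pdgfb, a platelet-derived growth factor chain, had 9.09, 8.404 and 7.11 CPM in double-knockdown libraries, against means of 4.05 CPM in shMtfr1l, 3.79 CPM in shOpa1 and 3.21 CPM in shNT. Syk, a signalling kinase of blood cells, averaged 60.4 CPM in the double knockdown, against 44.3, 47.3 and 38.1 CPM in shMtfr1l, shOpa1 and shNT. Among single-knockdown libraries, leukocyte marker sums were highest in the second shMtfr1l library (794 CPM) and the third shOpa1 library (979 CPM). Pdgfb and Syk were highest in the same libraries, at 5.14 and 5.53 CPM for Pdgfb and 51.6 and 52.8 CPM for Syk. Ncoa3, a nuclear receptor coactivator, and Rrs1, a ribosome assembly factor, rose against shNT by 0.48 and 0.36 on the log2 scale (adjusted p = 2.37e-06 and 0.00589). For neither was the second shMtfr1l library the highest of its group. The third shOpa1 library was the highest of its group for both, at 73.6 CPM for Ncoa3 and 36.0 CPM for Rrs1. The part of leukocyte RNA in these calls was not tested. The lower genes included lipid genes. Scd2 averaged 309 CPM in the double knockdown, against 459.8, 368 and 629.9 CPM in shMtfr1l, shOpa1 and shNT. Fads2, the delta-6 desaturase, and Abca1, the cholesterol exporter, fell against shNT by 0.58 and 0.61, as did Cdo1, cysteine dioxygenase, by 0.91 and Lamp2, a lysosomal membrane protein, by 0.35 on the log2 scale (adjusted p = 8.71e-08, 6.51e-07, 1.18e-13 and 1.13e-07).

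The interaction of the knockdowns asks whether the double knockdown departs from the sum of both single changes on the log2 scale. It was called in 222 genes with a positive and 282 with a negative term (1.57% and 1.99% of genes tested, 3.56% together), a positive term meaning that the double knockdown lay above that sum. The 504 calls became 222 and 161 without replicate 1 or 2 of every group. Lox showed a positive term, since it averaged 910.5 CPM in the double knockdown, 1073 CPM in shMtfr1l, 941 CPM in shOpa1 and 1782 CPM in shNT (interaction 0.69 ± 0.06, adjusted p = 7.70e-10). The double knockdown and shOpa1 did not differ in Lox past the threshold (-0.05 ± 0.04, adjusted p = 0.649 on the log2 scale). Saa3 had the largest positive term by the rule used, with 2.66, 5.14 and 2.19 CPM in double-knockdown, 1.35, 0.526 and 1.22 CPM in shMtfr1l, 2.72, 2.24 and 2.53 CPM in shOpa1 and 13.98, 5.86 and 13.1 CPM in shNT libraries (interaction 3.81 ± 0.52, adjusted p = 2.16e-05). Galnt16, a glycosyltransferase that starts O-linked glycans, had a negative term, with means of 48.0 CPM in the double knockdown, 33.6 CPM in shMtfr1l, 66.9 CPM in shOpa1 and 16.5 CPM in shNT (interaction -1.50 ± 0.15, adjusted p = 1.14e-08).

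By list, positive terms were called in 7 of 36 fibroblast identity genes, 8 of 40 matrix assembly genes, 7 of 38 inflammation genes, 5 of 36 sterol genes and 3 of 22 epicardial genes, with negative terms in 2 of the matrix assembly genes and in none of the other 4 lists. Other matrix lists were mixed, with 3 positive and 5 negative terms among 32 collagens, 3 and 4 among 23 metalloproteinases and inhibitors, 2 and 3 among 30 matricellular genes, and 2 and 1 among 23 basement membrane genes. Negative terms were called in 6 of 29 Z-disc genes, 4 of 25 hormone and energy genes and 3 of 26 calcium-handling genes, with no positive term among them. Vcam1 averaged 200.4 CPM in the double knockdown, 174 CPM in shMtfr1l, 188 CPM in shOpa1 and 278 CPM in shNT (interaction 0.76 ± 0.08, adjusted p = 5.77e-08). Synpo2l averaged 62.1 CPM in the double knockdown, 46.9 CPM in shMtfr1l, 76.2 CPM in shOpa1 and 29.3 CPM in shNT (interaction -0.97 ± 0.13, adjusted p = 5.42e-06), so the double knockdown lay below the sum of the single changes. Mtfr1l itself had a positive term (interaction 0.78 ± 0.15, adjusted p = 0.00146).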

How the data were processed

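RNA was measured by bulk sequencing in 12 libraries of the second set, 3 per group, and groups were read from the titles. The authors deposited unnormalised gene counts, which per the file headers came from featureCounts 2.0.6 in strand-specific mode with the UCSC annotation of mm10, with mates counted singly and multi-mapping reads left out. The submitters' processing notes list FastQC and DESeq2. No source used here names the aligner. The first set's 6 samples were not used here.

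Counts were scaled by TMM and genes with low counts removed with filterByExpr. All 12 libraries entered an edgeR 4.0.16 quasi-likelihood fit with robust dispersions (R 4.3.3, limma 3.58.1, 1 coefficient per group, 8 residual degrees of freedom, common biological coefficient of variation 12.04%). Adjustment over 14162 genes followed Benjamini and Hochberg, with calls under 0.05. Standard errors are the absolute log2 fold change divided by the square root of F. Fitted fold changes use edgeR's default prior count. A prior count of 2 was used only for the log2 CPM values behind the correlations between libraries. Depth ran from 16205862 to 25317069 counts, and the limit of 3 counts covers counting error only. The fit was tested on simulated data.

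Genes named are the hairpin targets, the vector factors, the 15 largest rises and 15 largest falls against shNT (called, mean of at least 2 CPM, groups not overlapping), for each list the 4 members of smallest adjusted p, and the 5 largest rises and 5 largest falls in each other comparison and in the interaction. Others are said to be chosen after their values were seen, and some genes the rule takes are not reported here. The members, lists and comparisons were chosen with earlier results of these data known. The titles tie replicate numbers to days, so the numbers were treated as pairing the libraries in an alternative fit with replicate as a block. The fit behind the values given has no such term. Deviations from the group means correlated at -0.189 to 0.122 for 18 same-numbered pairs of libraries and at -0.136 to 0.195 for 36 other pairs. Alternatives were DESeq2 size factors, the DESeq2 1.42.0 Wald test, other filters on low counts, replicate as a block, a 1.5-fold threshold, these groups alone, and libraries left out in turn. Promoters came from the RefSeq table of GRCm38.p6, matched by symbol, and were read over the 250 bases before each start.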

Additional observations from a re-analysis of the deposited data

Results flagged for a closer look

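The test of the interaction itself was called at an adjusted p under 0.05 (edgeR quasi-likelihood test) in 504 genes. In these the double knockdown departed from the sum of both single changes on the log2 scale. Each target was lowered less in the double knockdown than by its hairpin alone, and the part of this in the interaction terms was not tested. Of the 181 named genes 44 were among the 504, 26 with a positive and 18 with a negative term. Of these, 39 also differed between the double knockdown and shNT. In log2 units, large positive terms were those of Saa3 (3.81), Plac8 (1.64), Mmp8 (1.62), Bst1 (1.52), Bnc1 (0.90), Lrrn4 (0.82), Mtfr1l (0.78), Vcam1 (0.76), Cpxm1 (0.75), Msln (0.72), Ddit4 (0.69), Lox (0.69) and Mt2 (0.63). Smaller positive terms were found for Col18a1 (0.52), Mfap4 (0.49), Insig1 (0.46), C1ra (0.45), Col11a1 (0.44), Tcf21 (0.43), Lama4 (0.42), Sod3 (0.40), Hmgcs1 (0.34), Ltbp2 (0.33), Timp3 (0.26), Bgn (0.21) and Sparc (0.18). Large negative terms were those of Col10a1 (-1.97), Col26a1 (-1.84), 1700113A16Rik (-1.57), Galnt16 (-1.50), Xirp2 (-1.11), Npr3 (-1.07), Synpo2l (-0.97), Csrp3 (-0.82), Adamts1 (-0.65) and Flt1 (-0.60), and smaller negative ones were found for Ccnd3 (-0.50), Uqcr10 (-0.45), Btg2 (-0.42), Adm (-0.41), Hspd1 (-0.41), Ctgf (-0.33), Slc7a1 (-0.28) and Flnc (-0.26).

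The positive terms include matrix and mesothelial genes that were lower in the double knockdown than in shNT, such as Lox, Mfap4, Lrrn4 and Msln. Lrrn4 averaged 46.4 CPM in the double knockdown, 48.6 CPM in shMtfr1l, 48.8 CPM in shOpa1 and 90.0 CPM in shNT. The negative terms include striated muscle genes that were higher in the double knockdown than in shNT, such as Xirp2, Synpo2l and Csrp3. Csrp3 averaged 31.2 CPM in the double knockdown, 43.7 CPM in shMtfr1l, 22.7 CPM in shOpa1 and 18.1 CPM in shNT. Groups of 3 libraries are too small for a check of single outlying samples.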

How the results depend on the processing

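In the order of the double knockdown against shNT, against shMtfr1l, against shOpa1 and the interaction, the called genes numbered 3270, 3041, 675 and 504. With DESeq2 size factors they numbered 3261, 3034, 674 and 480, without a filter 3411, 3237, 880 and 668, with a mean of at least 2 CPM 3304, 3114, 708 and 517, and with the DESeq2 Wald test 3508, 3310, 824 and 648. With replicate as a block they numbered 3071, 2846, 576 and 411, and beyond the genes and the leukocyte list given above the block ended the call of 1 named gene, Cd300a (adjusted p = 0.0662). Fitted alone, the double knockdown and shNT gave 3642 calls, and 3809 with the block. Leaving out all libraries of 1 replicate number gave 2185 to 2398, 1964 to 2293, 199 to 456 (370 without replicate 1) and 161 to 402 calls (222 without replicate 1). Leaving out 1 library of the groups compared gave 2592 to 2914, 2374 to 2876, 409 to 589 and 339 to 539 calls, where for the interaction leaving out shNT, shMtfr1l or shOpa1 libraries was chosen after seeing the data. Tested for a change past 1.5-fold, 104 genes passed against shNT, 27 higher and 77 lower. Of 160 called genes taken by the naming rule none reversed in 17 settings (154 had a value in each), 36 kept their call in all that gave a value, 91 lost it only past 1.5-fold and 33 in another setting. In some cases, when all libraries of 1 replicate number were left out, calls were lost that no single library ended, for Ankrd29, Atp5b, Mpc2, Smarcd3 and Tbx18 (adjusted p = 0.139, 0.0666, 0.0642, 0.0684 and 0.0505). Genes near the limit of 0.117 to 0.183 CPM, such as Rspo1 and Pln in the double knockdown, rest on few counts.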
